A study of Mus musculus with 6 samples.

Results

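The genes of MHC class II antigen presentation were followed in macrophages sorted from subcutaneous MC38 tumours. The members are 10 genes chosen by symbol, all present among the 21760 symbols of the count table. They are the classical chains H2-Aa, H2-Ab1 and H2-Eb1, the peptide editor genes H2-DMa, H2-DMb1 and H2-DMb2, the modulator genes H2-Oa and H2-Ob, the invariant chain gene Cd74 and the transactivator gene Ciita. All 10 passed the filter on low counts.

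MC38 is a mouse colon carcinoma line, and the tumours grew for 16 days in C57BL6 mice. The tumour cells were Xkr8 KO clone 2 (2 mice), Xkr8 KO clone 1 (2 mice) or wild type (WT, 2 mice). Xkr8 is a scramblase that exposes phosphatidylserine on dying cells. The knockout lies in the tumour and no deletion is labelled for the host macrophages, so the study asks what macrophages do in tumours blocked in this exposure. Each KO clone is a single derivative of the line, so effects of the lost gene and of a clone's other traits cannot be told apart. Xkr8 in these host cells does not check the labels. The labels name no further treatment, and they give neither the age of the mice nor the sorting markers.

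A class II molecule is a pair of an alpha and a beta chain that shows peptides from engulfed material to CD4+ T cells. In the endoplasmic reticulum the invariant chain, encoded by Cd74, fills the groove and leads the complex to endosomes. There proteases cut it down to a short fragment called CLIP, H2-DM removes CLIP and edits the peptides, and H2-O restrains H2-DM. Ciita does not bind DNA itself but joins factors already assembled on the promoters of these genes, and in macrophages its own transcription is induced by interferon-gamma. C57BL/6 mice carry a defective alpha gene for the H2-E molecule, so their H2-Eb1 chain lacks its usual partner.

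Library totals were 38263824 to 40022755 estimated counts in clone 2, 37090034 and 38520351 in clone 1, and 39173757 and 20038047 in WT mice 1 and 2. Levels are given as CPM, counts scaled to a library of 1000000. WT mouse 2 stood apart: 24.6% of its counts fell on Rn45s, a ribosomal RNA precursor, against 1.46% to 7.12% elsewhere, and its log2 CPM correlated with the other libraries at 0.931 to 0.944, against 0.98 to 0.995 among the other 5. The macrophage identity of the sort was visible in every library. The 10 macrophage markers, among them Adgre1 (F4/80), Csf1r and C1qa, summed to 12600 to 12900 CPM in clone 2, 11000 to 12400 in clone 1 and 10300 to 13100 in WT. The 8 dendritic cell markers summed to 37.3 to 44.3 CPM in clone 2, 32.3 to 49.5 CPM in clone 1 and 21.6 to 31 CPM in WT. The 8 B cell markers summed to 23.1 to 24.5 CPM in clone 2, 17.4 to 23.1 CPM in clone 1 and 10.3 to 12.9 CPM in WT. The B cell genes Cd79a, Pax5 and Blk stayed under 0.5 CPM everywhere, while Cd79b ran from 3.1 to 12.3 CPM and Cd22 from 4.79 to 9.69 CPM. Both had KO above WT without overlap, as did 12.9% of all genes tested. None of the 4 B cell markers tested had KO below WT without overlap. The sum of epithelial and tumour markers was 11.1 to 12.8 CPM over the KO libraries, 15.6 CPM in WT mouse 1 and 44.1 CPM in WT mouse 2. Nearly all of it was Cdh1, at 15.1 CPM in WT mouse 1 and 43.1 CPM in WT mouse 2, and Epcam, Krt8 and Krt18 stayed at or under 0.688 CPM in every library. In bulk RNA, fewer cells of a type and less RNA per cell cannot be told apart.

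All 10 genes were higher in both clone 2 mice than in both clone 1 mice, as were 21.8% of all genes tested. The WT mice differed widely from each other. WT mouse 1 was below both clone 2 mice for all 10 genes and was the lowest of the 6 libraries for 7, while WT mouse 2 was above both clone 1 mice for all 10 and the highest of the 6 for 5. No share over all genes is given for these WT counts, and WT mouse 2 stood apart as a library. The counts are therefore not read as particular to the class II genes. No member passed the test in any comparison over the 6 libraries, while 0% to 0.135% of all genes did, depending on the comparison. The 8 H2 genes lie within chr17:34092340-34316674 (GRCm38, GENCODE M21), in the class II region of the mouse MHC, and Ciita lies on chromosome 16.

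The classical chains were abundant. H2-Aa, the alpha chain of the H2-A molecule, stood at 3013 and 2895 CPM in clone 2 mice, 1006 and 1277 CPM in clone 1 mice, and 724.4 and 2332 CPM in WT mice. The clone 2 mice were the highest of the 6 and the clone 1 mice lay between the WT mice. Its partner H2-Ab1 followed the same order, at 2712 and 2660 CPM in clone 2, 993.7 and 1274 CPM in clone 1, and 707.6 and 2206 CPM in WT. H2-Eb1, the beta chain of H2-E, stood at 2082 and 2139 CPM in clone 2, 775.5 and 939.6 CPM in clone 1, and 590.2 and 2950 CPM in WT. Here WT mouse 2 exceeded the clone 2 mice. The defective partner gene, listed as H2-Ea-ps, was at 0 to 0.132 CPM in every library and was not tested, and the related locus H2-Eb2 stayed at 0.625 to 2.34 CPM.

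Cd74, the highest member per kilobase of transcript by group mean, had 4461 and 4353 CPM in clone 2, 1912 and 2268 CPM in clone 1, and 1353 and 7721 CPM in WT. The lowest and the highest of the 6 libraries were thus both WT. Ciita stood at 138.6 and 133.9 CPM in clone 2, 60.08 and 69.82 CPM in clone 1, and 38.02 and 102.4 CPM in WT. The clone 2 mice were above all others for Ciita, as for H2-Aa and H2-Ab1.

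H2-DMa and H2-DMb1 encode the chains of H2-DM. H2-DMa was at 259 and 275 CPM in clone 2, 157.8 and 187.8 CPM in clone 1, and 137.3 and 333.6 CPM in WT. H2-DMb1 was at 293.7 and 294.8 CPM in clone 2, 144.8 and 176.7 CPM in clone 1, and 134.4 and 198 CPM in WT. For H2-DMb1 the clone 2 mice were above every other library, while for H2-DMa WT mouse 2 was the highest. H2-DMb2, a further beta chain gene, was at 8.978 and 9.33 CPM in clone 2, 6.204 and 8.178 CPM in clone 1, and 6.259 and 12.52 CPM in WT. It was the H2-DM gene with the clones closest to each other. Of the 31-base stretches in H2-DMb1 transcripts 37.6% also occur in H2-DMb2, so the division of reads between these genes is uncertain. Their sum was 303 and 304 CPM in clone 2, 151 and 185 CPM in clone 1, and 141 and 211 CPM in WT, the same order as H2-DMb1 alone. The other members shared at most 1.66% of such stretches with another gene.

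The H2-O genes, best known from B cells and some dendritic cells, were low. H2-Ob was at 11.11 and 10.29 CPM in clone 2, 6.495 and 6.537 CPM in clone 1, and 6.523 and 13.55 CPM in WT. H2-Oa was at 2.543 and 2.309 CPM in clone 2, 1.163 and 1.797 CPM in clone 1, and 1.45 and 2.064 CPM in WT, which rests on 30 to 100 estimated counts a library. The clone groups did not overlap for either gene.

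**Figure D1:**
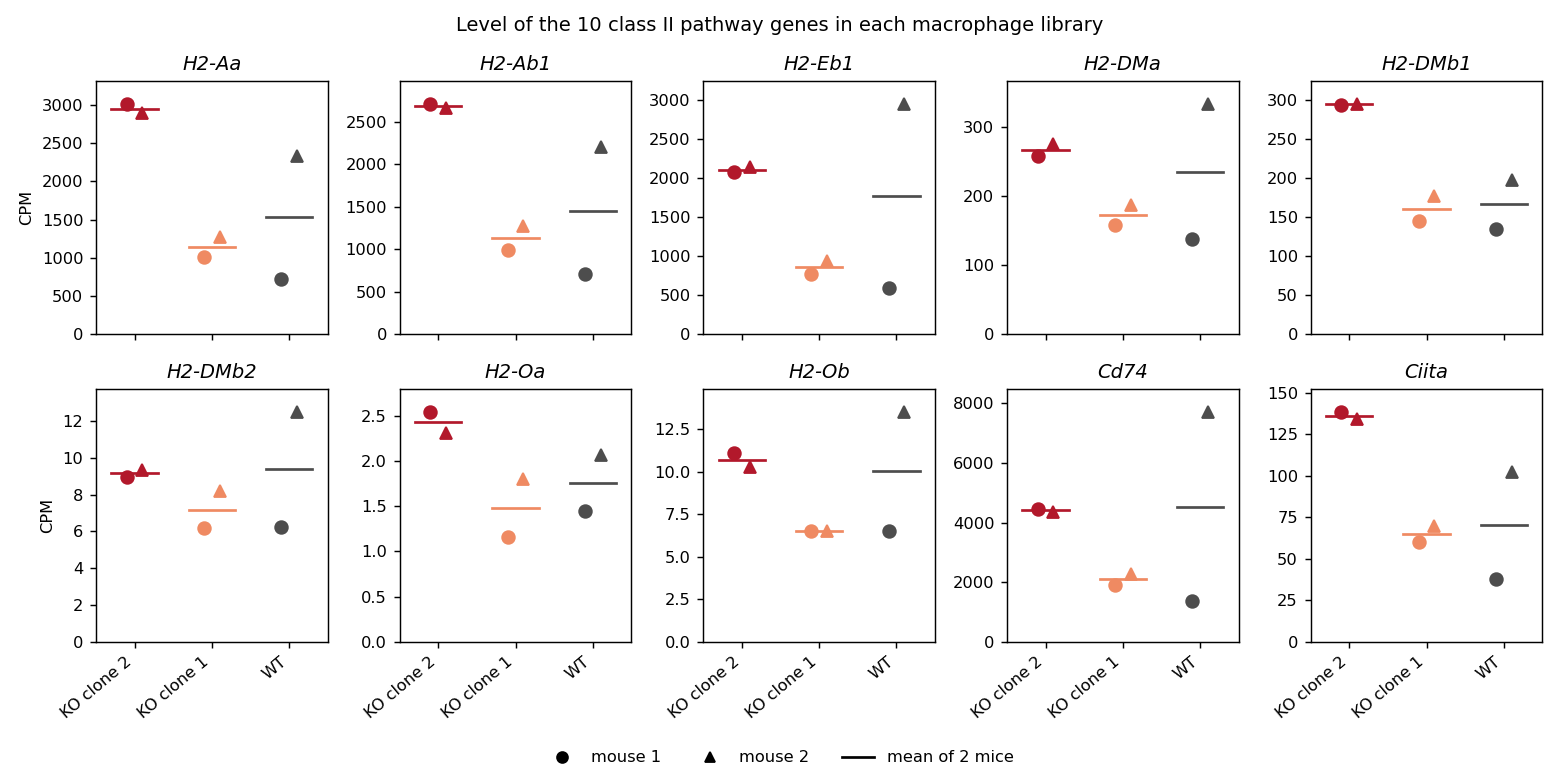
CPM (y axis, from 0) of each of the 10 genes in clone 2, clone 1 and WT macrophages, with a point for each mouse and a line at the mean of 2 mice. The clone 2 points lie close together and above the clone 1 points in every panel, while the WT points spread widest for Cd74, from 1353 to 7721 CPM.

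The order of the genes was set on CPM per kilobase of transcript, which allows levels of different genes to be compared. By group mean it was the same in the 3 groups: Cd74, H2-Aa, H2-Ab1, H2-Eb1, H2-DMb1, H2-DMa, Ciita, H2-DMb2, H2-Ob and H2-Oa. In clone 2 the level per kilobase ran from 3130 ± 54.2 (SD, n = 2) for Cd74 to 2.23 ± 0.153 for H2-Oa, and no neighbours in the order overlapped between mice. In clone 1 Cd74 had 1480 ± 179 (SD, n = 2), and H2-Aa (1010 ± 170) and H2-Ab1 (936 ± 164) overlapped. In WT Cd74 had 3220 ± 3190 (SD, n = 2), and each neighbouring pair among Cd74, H2-Aa, H2-Ab1 and H2-Eb1 overlapped. H2-DMb1 and H2-DMa overlapped in WT too, with H2-DMa the higher in WT mouse 2, as did Ciita and H2-DMb2, and H2-DMb2 and H2-Ob.

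The 10 genes took 1.28% and 1.39% of all counts in clone 2, 0.542% and 0.643% in clone 1, and 0.43% and 1.15% in WT. With Rn45s left out of the total the share was 1.37% and 1.42% in clone 2, 0.556% and 0.662% in clone 1, and 0.436% and 1.53% in WT. The spread between mice of a group was smallest in clone 2, where mouse 2 had 0.908 to 1.06 times the CPM of mouse 1 over the 10 genes. In clone 1 this ratio was 1.01 to 1.54, and in WT it was 1.42 for H2-Oa to 5.71 for Cd74.

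Clone 2 was set against clone 1, both knocked out for Xkr8, to ask whether macrophages of the clones differed in class II expression. All 10 genes had positive log2 fold changes, with a median of 0.97, beside -0.02 over all 15560 genes tested, of which 47% were positive. The values were largest for the classical chains. H2-Aa averaged 2950 CPM in clone 2 and 1140 CPM in clone 1 (log2 fold change 1.37 ± 0.52, SE). H2-Eb1 averaged 2110 CPM in clone 2 and 858 CPM in clone 1 (1.30 ± 0.66), and H2-Ab1 2690 CPM in clone 2 and 1130 CPM in clone 1 (1.24 ± 0.51). Cd74 followed at 1.08 ± 0.71 and Ciita at 1.07 ± 0.44. The editor and modulator genes had smaller values, from 0.87 ± 0.26 for H2-DMb1 through 0.72 ± 0.37 for H2-Ob, 0.71 ± 0.40 for H2-Oa and 0.63 ± 0.41 for H2-DMa to 0.35 ± 0.37 for H2-DMb2.

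By edgeR's quasi-likelihood test none of the 10 passed, with adjusted p of 0.988 to 1. Across all genes that test called 0% in this comparison. At an unadjusted p under 0.05 there were 4 members (H2-DMb1, H2-Aa, Ciita and H2-Ab1), beside 1.32% of genes in that direction, and DESeq2 and limma-voom called no member either. The spread in this fit is shared with the WT pair. Fitted on the 4 KO libraries alone, a choice made after the data were seen, Ciita (1.07 ± 0.12, adjusted p = 0.0308 by edgeR), H2-Eb1 (1.30 ± 0.16, adjusted p = 0.0363) and H2-Aa (1.37 ± 0.17, adjusted p = 0.0434) passed, beside 0.258% of 15141 genes called higher. H2-Ab1 was just outside at 1.25 ± 0.17 with an adjusted p of 0.0562 by edgeR. Without WT mouse 1 these 3 genes passed as well, beside 0.231% of genes called higher, and without WT mouse 2 they passed together with H2-Ab1, beside 0.267%.

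**Figure D2:**
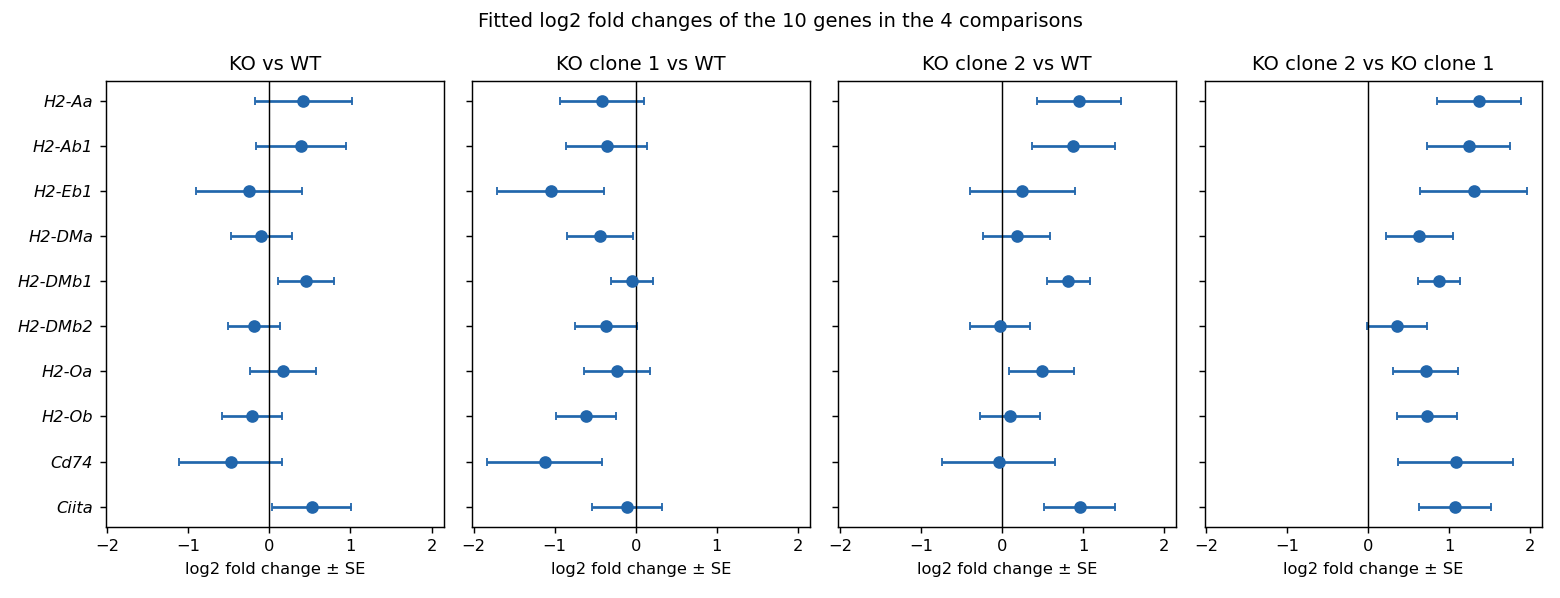
Fitted log2 fold changes (x axis) of the 10 genes with standard errors as bars, in the 4 comparisons, each titled with the group on top of the ratio first. Every clone 2 over clone 1 value is positive, from 0.35 to 1.37, and every clone 1 over WT value is negative, from -1.12 to -0.05.

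Levels of other cells are set beside this difference. Of all genes tested 21.8% had clone 2 above clone 1 without overlap, which is the share to set beside each list here. In clone 2 against clone 1 the dendritic cell sums overlapped, and 3 of the 8 markers had clone 2 above clone 1 (Flt3, Ccr7 and Batf3). Flt3, the receptor that sustains dendritic cells, was at 3.05 CPM in clone 2 and 1.72 CPM in clone 1 on average. The defining markers Zbtb46, Clec9a and Xcr1 overlapped between the clones. The 4 monocyte markers summed to 766 to 881 CPM in clone 2 and 458 to 658 CPM in clone 1, mostly from the chemokine receptor gene Ccr2 (656 CPM in clone 2 and 367 CPM in clone 1 on average). The sums did not overlap, but only Ccr2 and Hp of the 4 had clone 2 above clone 1. Plac8 had clone 2 below clone 1, at 77.5 CPM in clone 2 and 94.5 CPM in clone 1, and Ly6c2 overlapped, at 86.9 CPM in clone 2 and 93.9 CPM in clone 1; the list's median log2 fold change was 0.12. Of the B cell markers 4 of 8 were tested, and Cd79b (12 CPM in clone 2, 8.3 CPM in clone 1) had clone 2 above clone 1. Fcer2a had clone 2 below clone 1 (1.45 CPM in clone 2, 2.1 CPM in clone 1), and the list's median was -0.09, with 2 genes positive and 2 negative. In the plasmacytoid dendritic cell list of 4 genes, Spib, a transcription factor of B cells and plasmacytoid dendritic cells, had 1.61 CPM in clone 2 and 0.707 CPM in clone 1, without overlap. Ccr9 stood the other way without overlap, at 1.73 CPM in clone 2 and 2.7 CPM in clone 1, and Siglech, which marks these cells, stayed under 1 CPM everywhere. The part of these cells in the class II difference was not tested.

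Promoters of class II genes share a module of X and Y boxes, bound by RFX and NF-Y, where Ciita is recruited. The stretches that hold the Y box are shown because the 10 genes stood in the same order between the clones. They come from RefSeq promoter windows on GRCm38.p6, 250 bases before to 50 after the gene start, which 7 members had; H2-Ab1, Cd74 and Ciita are the others. Each line runs 5′ to 3′ on the gene's strand, with TGATTGG, an extended Y box, and ACNGATG, an X box core, in capitals. Only exact matches are marked, so a line without ACNGATG is not shown to lack an X box.
H2-Aa: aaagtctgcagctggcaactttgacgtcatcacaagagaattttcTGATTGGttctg
H2-Eb1: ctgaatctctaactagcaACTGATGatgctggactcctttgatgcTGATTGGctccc
H2-DMb2: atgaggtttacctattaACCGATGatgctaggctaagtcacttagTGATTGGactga
H2-Oa: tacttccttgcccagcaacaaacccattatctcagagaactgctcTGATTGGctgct
H2-Ob: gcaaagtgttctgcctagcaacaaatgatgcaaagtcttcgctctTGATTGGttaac
They lie at chr17:34287862-34287918 (minus strand, H2-Aa), chr17:34305761-34305817 (plus, H2-Eb1), chr17:34145112-34145168 (plus, H2-DMb2), chr17:34092289-34092345 (plus, H2-Oa) and chr17:34238801-34238857 (plus, H2-Ob). The same letters TGATTGG stood in the H2-DMb1 window, whose stretch is not printed because stretches lying mostly in annotated exons were left out. Thus 6 of 7 members with a window held these letters, beginning at positions -92 to -45 with the gene's first base as 0. On either strand 7.82% of the 32851 windows of the reference held them. This longer form was chosen after the windows had been seen; its inner letters ATTGG, chosen earlier, stood in 37.4% of windows. The H2-DMa windows held TGATTGG at neither of its starts. ACNGATG occurred in 9.85% of windows. Outside the printed stretches it stood at -137 in H2-Oa and, on the opposite strand, at -232 in H2-Aa, and H2-DMa and H2-Ob had none. In H2-Eb1 it stood 22 bases before ATTGG on the gene's strand, and in H2-DMb1 and H2-DMb2 23 bases before it. That arrangement, with 10 to 30 bases between, was found in 27 windows or 0.0822% of all. H2-Eb1, at the large end of the clone difference (1.30), and H2-DMb2, at the small end (0.35), both hold it.

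Each group of KO macrophages was also set against WT. In KO against WT, with both clones together, 5 genes had positive and 5 negative log2 fold changes, with a median of 0.04 beside 0 over all genes, of which 50.2% were positive. The range was from -0.48 ± 0.64 (SE) for Cd74, which averaged 3250 CPM in KO and 4540 CPM in WT, to 0.52 ± 0.49 for Ciita, which averaged 101 CPM in KO and 70.2 CPM in WT. Every member's groups overlapped, while over all genes 12.9% had KO above WT and 10.7% had KO below WT. None of the 10 passed edgeR's quasi-likelihood test (adjusted p of 0.503 to 0.896), beside 0.135% of genes called in either direction, none had an unadjusted p under 0.05 (13.6% of genes did), and DESeq2 and limma-voom called none. The 4 monocyte markers came to 458 to 881 CPM together in KO libraries, against 290 CPM in WT mouse 1 and 68.7 CPM in WT mouse 2. Most of this sum was Ccr2, at 280 to 717 CPM in KO and 277 and 40.6 CPM in WT mice 1 and 2. All 4 had KO above WT without overlap, and Ly6c2 alone passed. It averaged 90.4 CPM in KO and 3.49 CPM in WT (4.72 ± 0.27, adjusted p = 0.00279 by edgeR). The part of monocytes in the class II values was not tested.

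In clone 1 against WT all 10 values were negative, with a median of -0.40, and in clone 2 against WT 8 were positive, with a median of 0.37; these comparisons share the WT mice. Over all genes 51.2% were positive in clone 1 and 48.3% in clone 2. Cd74 had -1.12 ± 0.71 (SE) and H2-Eb1 -1.05 ± 0.66 in clone 1, against WT. In clone 2 against WT, Ciita had 0.96 ± 0.44, H2-Aa 0.95 ± 0.52, H2-Ab1 0.88 ± 0.51 and H2-DMb1 0.82 ± 0.26, whereas Cd74 had -0.04 ± 0.70. In both comparisons edgeR called 0 of 10 members and 0.00643% of all genes, and DESeq2 and limma-voom called none of the members. At an unadjusted p under 0.05 there was no member in clone 1, where 7.1% of genes had one, and H2-DMb1 in clone 2, where 5.12% had one and were higher. In clone 2 both mice were above both WT mice for 5 of 10 genes (H2-Aa, H2-Ab1, H2-DMb1, H2-Oa and Ciita), beside 26.5% of genes tested. In clone 1 all 10 overlapped with WT, beside 17.4% of genes with clone 1 above and 15.1% with clone 1 below.

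These values turned on which WT mouse was used. Without WT mouse 2 all 10 genes were positive in KO against WT, with H2-Aa at 1.48 and Cd74 at 1.24, and without WT mouse 1 only H2-DMb1 was positive, with H2-Aa at -0.17 and Cd74 at -1.24. Neither setting called a member there, while without WT mouse 2 edgeR called 0.168% of genes higher and 0.00622% lower, and without WT mouse 1 it called 21.9% higher and 15.7% lower. In clone 2 against WT mouse 1 alone, 6 members were called higher by edgeR, beside 0.908% of genes, with H2-Aa at 2.01 ± 0.22 and Ciita at 1.82 ± 0.16; H2-Ab1, H2-Eb1, H2-DMb1 and Cd74 were the others. Against WT mouse 2 alone, H2-DMb1 was called higher (0.59 ± 0.17) and Cd74 lower (-0.79 ± 0.20), beside 22.8% of genes called higher and 17.4% lower. In clone 1 against WT mouse 2 alone, 8 members were called lower, beside 13.7% of genes, and against WT mouse 1 alone none was called, beside 0.236% of genes called higher and 0.124% lower. In these fits the lone WT library is assumed to vary like the KO groups.

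**Figure D3:**
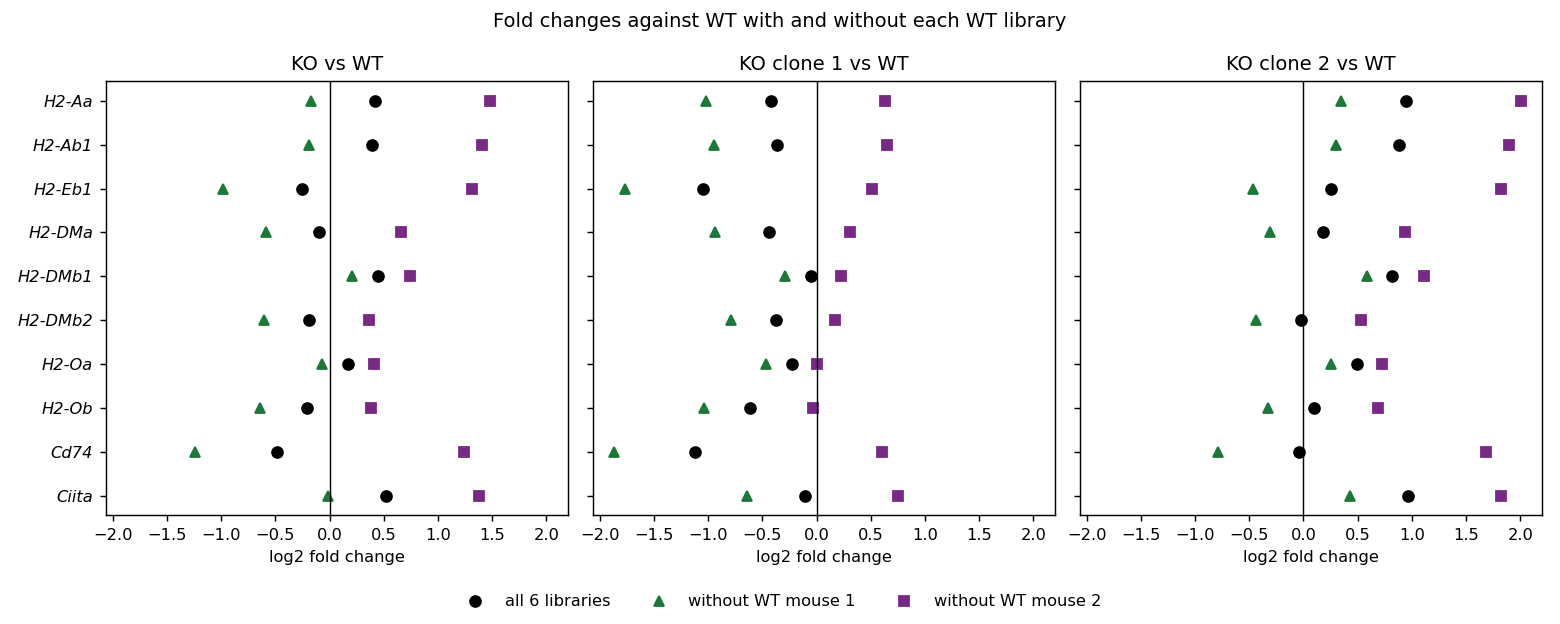
Log2 fold change (x axis) of each gene against WT with all 6 libraries (circles), without WT mouse 1 (triangles) and without WT mouse 2 (squares). The squares lie right of the triangles for every gene in every panel, and for Cd74 in KO against WT they stand at 1.24 and -1.24.

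Ratios between members of the same library do not depend on its scaling. The classical chains exceeded the H2-DM genes per kilobase by 17.9 and 17.1 times in clone 2, 11.7 and 12.2 times in clone 1, and 9.38 and 17.9 times in WT. The clones thus did not overlap, and the classical chains stood further above H2-DM in clone 2. Cd74 was 0.514 and 0.511 of the summed classical chains per kilobase in clone 2, 0.623 and 0.586 in clone 1, and 0.608 and 0.968 in WT. H2-Eb1 was 0.557 and 0.584 of H2-Ab1 per kilobase in clone 2, 0.567 and 0.535 in clone 1, and 0.606 and 0.971 in WT. WT mouse 2 therefore differed from the other libraries in the make-up of class II transcripts and not in their amount alone, with more Cd74 and H2-Eb1 relative to the H2-A chains. H2-Aa against H2-Ab1 was even, at 1.19 and 1.17 in clone 2, 1.09 and 1.08 in clone 1, and 1.1 and 1.14 in WT. H2-DM exceeded H2-O by 53 and 59.1 times in clone 2, 53.1 and 54.9 times in clone 1, and 44.6 and 45.3 times in WT.

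**Figure D4:**
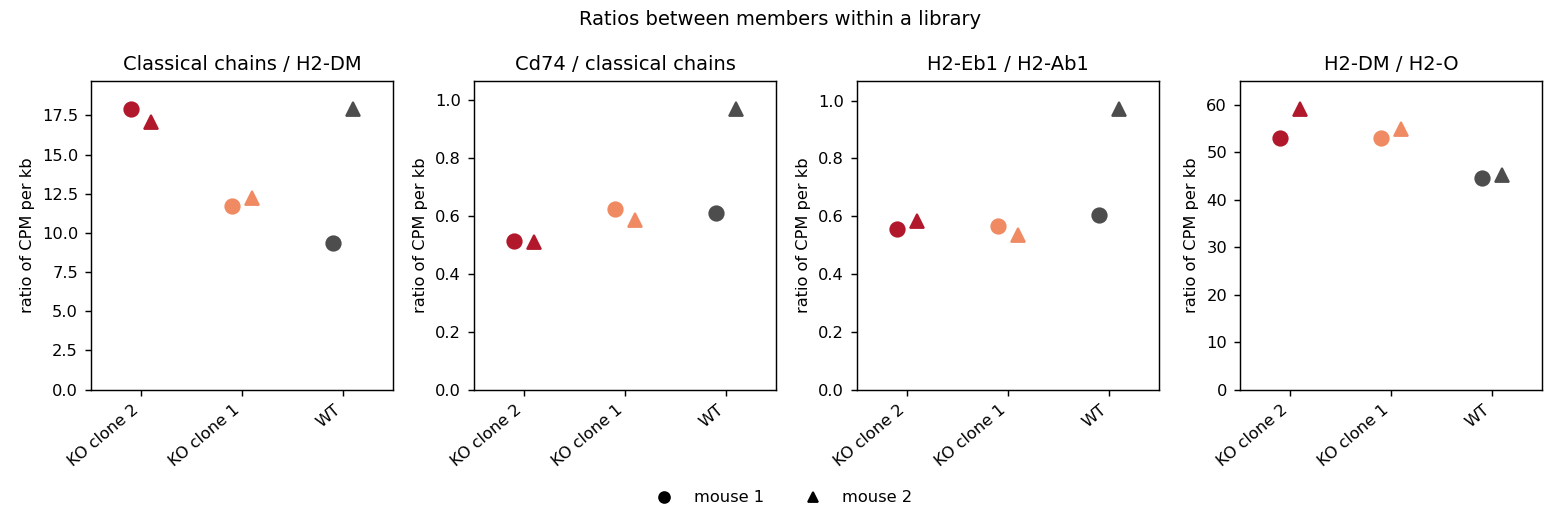
Ratios of CPM per kilobase between members (y axes, from 0) in each library, by group, with mouse 1 as circles and mouse 2 as triangles. Clone 2 lies above clone 1 for classical chains over H2-DM (17.9 and 17.1 against 11.7 and 12.2), and WT mouse 2 is alone near 0.97 for H2-Eb1 over H2-Ab1.

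The other genes of the pathway gave no call over all genes in any of the 4 comparisons. The 7 promoter factors that Ciita joins (Rfx5, Rfxank, Rfxap, Nfya, Nfyb, Nfyc and Creb1) were similar between clones, with a median log2 fold change of -0.10 and values from -0.20 to 0.21. Rfx5, the DNA-binding subunit of RFX, averaged 20.7 CPM in clone 2, 19 CPM in clone 1 and 20.2 CPM in WT. Their interval between clones is not narrow: Nfyc had 0.16 ± 0.49 (SE).

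The interferon-gamma input to Ciita had 8 tested genes. In KO against WT all 8 were positive, with a median of 0.48, and 4 had an unadjusted p under 0.05, beside 6.25% of all genes. Ifng, the cytokine itself, averaged 6.06 CPM in KO and 1.28 CPM in WT (2.33 ± 0.54, SE). Jak2, a kinase gene of its receptor, averaged 159 CPM in KO and 83.2 CPM in WT (0.93 ± 0.18). Neither passed, with adjusted p of 0.18 for Ifng and 0.119 for Jak2 by edgeR. The 5 T cell markers, whose cells make Ifng, had sums of 25.1 to 41.1 CPM in KO libraries and 7.82 to 12.7 CPM in WT libraries. Of these, Cd3g (3.82 ± 0.39, adjusted p = 0.0281 by edgeR) and Cd2 (2.70 ± 0.31, adjusted p = 0.0327) passed, beside 0.135% of all genes. Cd3e and Lck overlapped between KO and WT. The part of T cells was not tested. Between the clones the 8 interferon-gamma input genes were closer than the members, with a median of 0.06. Ifngr1, which encodes a receptor chain, was the exception at 213 CPM in clone 2 and 148 CPM in clone 1 (0.52 ± 0.20, unadjusted p of 0.0383 and adjusted p of 1 by edgeR).

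Of the 7 genes of antigen and invariant chain processing, 3 had positive and 4 negative values in KO against WT, with a median of -0.01. An unadjusted p under 0.05 was found for 2, both higher, as for 6.25% of all genes: Ctss, the protease that trims the invariant chain, at 5070 CPM in KO and 3310 CPM in WT (0.61 ± 0.24, SE), and Sppl2a, which clears its membrane stub, at 374 CPM in KO and 221 CPM in WT (0.76 ± 0.23). The lowest values were those of the endosomal protease gene Lgmn (-0.27 ± 0.21) and the thiol reductase gene Ifi30 (-0.23 ± 0.20). Between clones the list had a median of -0.05, with Ctss at 0.31 ± 0.28 and the cathepsin gene Ctsl at -0.53 ± 0.24. Among turnover genes March1, a ubiquitin ligase that removes class II from the surface, averaged 199 CPM in KO and 88.6 CPM in WT (1.17 ± 0.28), and Cd83, which opposes it, 141 CPM in KO and 93.6 CPM in WT (0.59 ± 0.24). The costimulatory genes Cd86 (113 CPM in KO, 56.3 CPM in WT) and Cd80 (11.1 CPM in KO, 5.94 CPM in WT) had 1.01 ± 0.23 and 0.91 ± 0.21. Cd4, the coreceptor for class II, had 5.27 CPM in KO and 2.21 CPM in WT (1.27 ± 0.31), and Lag3, an inhibitory receptor for it, 7.62 CPM in KO and 6.89 CPM in WT. Cd40, which answers T cell help, had 40.8 CPM in KO and 23.9 CPM in WT (0.78 ± 0.26). For these genes edgeR's adjusted p was 0.165 or more, so none passed. Between the clones the 5 receptor and costimulation genes had a median of 0, with Cd86 at 113 CPM in clone 2 and 114 CPM in clone 1.

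**Figure D5:**
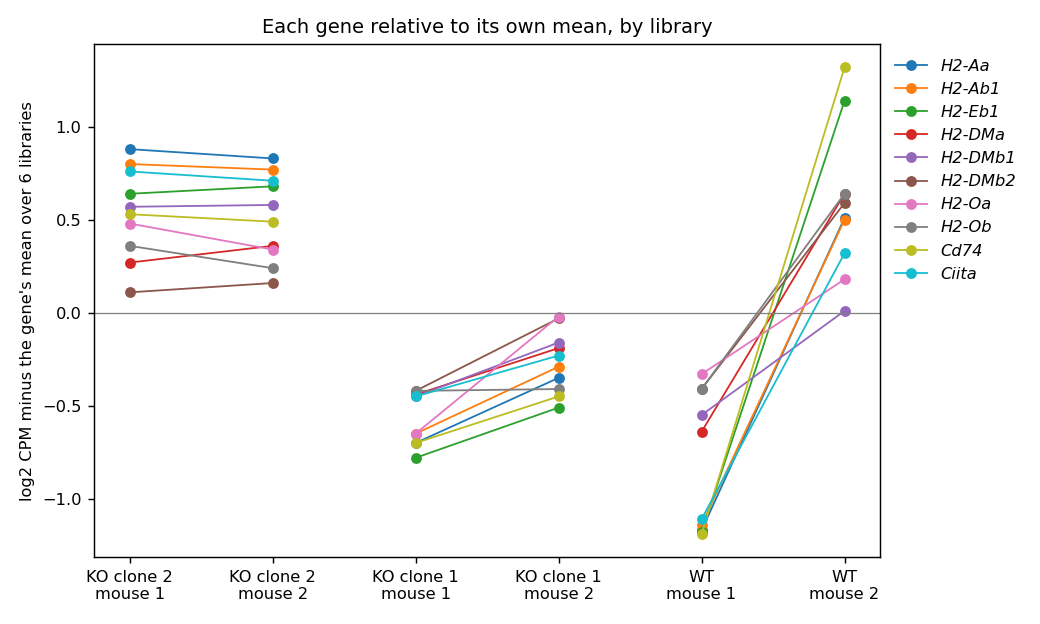
Log2 CPM of each gene minus its mean over the 6 libraries (y axis), by library, with lines joining the mice of a group. The clone 2 mice are above 0 and the clone 1 mice below 0 for all 10 genes, and the WT mice lie apart, at -1.19 and 1.32 for Cd74.

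The members differed in how near they lay to a common profile over the 6 libraries. The root mean square difference from the mean profile of H2-Aa, H2-Ab1, H2-Eb1 and Cd74, in log2 units after centring, was 0.128 to 0.216 for these 4, 0.259 for Ciita and 0.354 to 0.503 for the H2-DM and H2-O genes. The first 4 define that profile, so their closeness to it is partly built in. Among 10245 other tested genes with a mean of at least 5 CPM, the nearest was Vdr, the vitamin D receptor gene, at 0.288. It was followed by Tmem176a (0.389), the ubiquitin-like gene Ubd (0.403), Extl1 (0.405), Pbxip1 (0.407), Fat1 (0.411) and the collagen genes Col8a1 (0.429) and Col6a2 (0.434). By these values Vdr was nearer than each H2-DM and H2-O gene, and all 8 were nearer than H2-DMb1 (0.463), H2-Oa (0.501) and H2-DMb2 (0.503). The distances were not computed quite alike. For the 8 genes 0.5 CPM was added before the log2, which shrinks the swing of low genes, and for the members it was not. These 8 were picked as the nearest of 10245 genes, whereas the members were not picked by distance. The measure also counts a smaller swing as distance. H2-DMb1 ran from -0.55 in WT mouse 1 to 0.58 in clone 2 mouse 2, and the mean profile from -1.17 in WT mouse 1 to 0.87 in WT mouse 2. Tmem176a had the largest clone difference of these 8, at 1.75 ± 0.37 (SE) in clone 2 over clone 1 with an adjusted p of 0.508 by edgeR.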

How the data were processed

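Per the labels' protocols, ribosomal RNA was removed from total RNA of sorted macrophages before sequencing. The authors deposited estimated counts by gene symbol, as unscaled whole numbers. The submitters' processing notes list Salmon 0.7.2 and mm10. Not given in the sources used here: transcript set, strand use, filters.

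The tests came from edgeR 4.0.16 (R 4.3.3; filterByExpr minimum count 10, TMM, quasi-likelihood F test) on all 6 libraries, KO against WT with 2 genotype levels and the other comparisons with 3 groups. P-values were adjusted by Benjamini-Hochberg over all 15560 genes, with a threshold of 0.05. A standard error is the absolute log2 fold change divided by the square root of F. CPM use TMM-scaled totals. CPM per kilobase use the longest coding transcript of GENCODE M21 (GRCm38). DESeq2 1.42.0 and limma 3.58.1 (voom) were alternatives. Library pairs of a group were not copies (chi-square per degree of freedom 80.5 to 860); the labels give separate mice. The fits were tested on simulated data. Members and lists were chosen with earlier results of these data known. All members are named; from other lists up to 4 genes per direction with the smallest p, others after their values were seen. Some genes of these lists are not reported here.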

Additional observations from a re-analysis of the deposited data

Results flagged for a closer look

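For 6 genes both clone 1 mice lay below the WT mean on the log2 scale and both clone 2 mice above it, as for 2.34% of all genes tested. These were H2-Aa, with a log2 fold change of 1.37 in clone 2 over clone 1, H2-Eb1 (1.30), Cd74 (1.08), H2-Ob (0.72), H2-DMa (0.63) and H2-DMb2 (0.35). The difference between the clones, tested by edgeR over the 6 libraries, did not pass for any of them, with an adjusted p of 1 each. The WT mean is the midpoint of WT mice that differ by 2 to 5.71 times in these genes. With the WT mean taken on the linear scale, Cd74 (4410 CPM in clone 2, 4540 CPM in WT) and H2-DMb2 (9.15 CPM in clone 2, 9.39 CPM in WT) no longer showed this, and their fitted log2 fold changes of clone 2 over WT were -0.04 and -0.02. On that scale H2-Ab1 (1460 CPM in WT) and Ciita (70.2 CPM in WT) showed it in their place. The count was again 6 members, beside 2.62% of all genes tested. No member had a KO library far from the other 3. Because the clones stood apart for every member, that check had little room to find one.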

How the results depend on the processing

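Between the clones no member reversed in any setting. Where a library was left out it could hardly be otherwise, since both clone 2 mice were above both clone 1 mice for every member. The members' median ran from 0.85 to 1.12 over the settings that leave out a library. Against WT the calls over all genes moved with the method. For KO against WT (21 genes) DESeq2 called 499, no filter beyond 1 count 111, and the 3-group fit, taking both clones' mean, 1. DESeq2's calls were 72.1% higher ones, against 95.2% in edgeR. For clone 1 against WT (1 gene) DESeq2 called 271, no filter 123, and 5 CPM in 2 libraries 0. For clone 2 against WT (1 gene) RLE size factors called 9, DESeq2 465, no filter 229, 5 CPM in 2 libraries 0, and the removal of Rn45s 8. For clone 2 against clone 1 (0 genes) DESeq2 called 117, no filter 53, and the 4 KO libraries alone 79, of which 3 are members. The cause was not tested.

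With the mouse number as a replicate block the counts were 15, 0, 0 and 0, with 0 members in all. The labels give no pairing: same-numbered mice correlated in their deviations at -0.245 (clone 1 and WT), 0.0522 (clone 2 and WT) and 0.217 (clone 2 and clone 1). In that fit H2-Eb1 (0.02) and H2-DMa (0) reversed in KO against WT, and H2-DMb2 (0.04) and Cd74 (0.29) in clone 2 against WT. Under limma-voom H2-Eb1 was 0.01 in KO against WT, Ciita 0.09 in clone 1 against WT, and H2-DMb2 0.16 and Cd74 0.44 in clone 2 against WT. With no filter beyond 1 count the values there were 0.01 for H2-DMb2 and 0 for Cd74.

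Leaving out each library in turn gave 1 to 6020 genes for KO against WT, 0 to 5535 for clone 1, 0 to 6445 for clone 2 and 0 to 87 between clones. Members called ran from 0 to 8 for clone 1, 0 to 6 for clone 2 and 0 to 4 between clones. The members' median ran from -0.39 to 0.99 in KO, -0.94 to 0.41 in clone 1 and -0.03 to 1.40 in clone 2. In KO against WT the ranges were -0.17 to 1.48 for H2-Aa, -0.19 to 1.41 for H2-Ab1, -0.98 to 1.31 for H2-Eb1, -0.59 to 0.66 for H2-DMa, -0.60 to 0.36 for H2-DMb2, -0.07 to 0.41 for H2-Oa, -0.64 to 0.38 for H2-Ob, -1.24 to 1.24 for Cd74 and -0.01 to 1.38 for Ciita. In clone 1 they were -1.02 to 0.63 for H2-Aa, -0.95 to 0.65 for H2-Ab1, -1.77 to 0.51 for H2-Eb1, -0.94 to 0.31 for H2-DMa, -0.29 to 0.23 for H2-DMb1, -0.79 to 0.17 for H2-DMb2, -0.57 to 0.06 for H2-Oa, -1.87 to 0.60 for Cd74 and -0.64 to 0.75 for Ciita. In clone 2 they were -0.47 to 1.82 for H2-Eb1, -0.31 to 0.94 for H2-DMa, -0.44 to 0.53 for H2-DMb2, -0.33 to 0.69 for H2-Ob and -0.79 to 1.68 for Cd74. H2-Oa did not pass the filter of 5 CPM. With 2 mice a group, and WT mice this far apart, the data set no narrow limits on these genes against WT.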
